A study of Mus musculus with 12 samples.

Results

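Potassium channel genes were compared between retinas with oxygen-induced retinopathy (OIR) and normoxic retinas. The 70 genes were the rows of the gene table whose name began with Kcn and whose mean count over the 12 libraries was at least 10. The table held 99 such names among 57073 rows, of which 21 lay under the count minimum, 5 had antisense names, and 3 (Kcne3, Kcnj8 and Kcnj10) were left out by name. The OIR group held 6 retina libraries from C57BL/6 mice at postnatal day 17 that had been given 75% oxygen, and the normoxic group held 6 retina libraries of the same strain and age kept in normoxic air. The labels name no transgene or other agent in either group, and how long the oxygen was given is not stated in the sources used here. In this model high oxygen closes part of the growing retinal vessels, and the return to room air leaves poorly perfused tissue and abnormal vessel growth, so an OIR retina holds both perfused and avascular areas, which a library of whole-retina RNA mixes.

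Potassium channels let potassium leave the cell, which sets the resting potential and ends each depolarisation. In the retina, voltage-gated channels shape the responses of photoreceptors, bipolar, amacrine and ganglion cells, inward rectifiers and leak channels hold the resting potential, and accessory subunits set the gating and traffic of the pores. The genes were grouped by the type of subunit they encode. The voltage-gated classes were Kv1 to Kv4 pores, Kv7 and ether-a-go-go (EAG) pores, and electrically silent Kv subunits. The others were inward rectifiers, tandem-pore (K2P) leak channels, calcium-, sodium- or alkali-activated channels, and auxiliary subunits. The figures label the calcium-, sodium- or alkali-activated class Ca/Na-activated.

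Total counts ranged from 17366045 to 21594618 in the OIR libraries and from 17361979 to 19390627 in the normoxic ones. The 70 genes took 0.341% to 0.366% of all counts in OIR libraries (median 0.351%), against 0.363% to 0.416% in normoxic libraries (median 0.397%). The 5 rod markers summed to 35410 to 41120 CPM (counts per library size, adjusted for composition) in OIR retinas and to 32110 to 36480 CPM in normoxic retinas, so markers of the labelled tissue were abundant in every library. Replicates were numbered 1 to 6 in each group, and the labels do not say what the numbers stand for. Normoxic replicates 1 to 3 stood apart from normoxic replicates 4 to 6, with a chi-square per degree of freedom of 12.0 to 15.4 for pairs across these sets and 3.05 to 4.08 for pairs within them, while OIR pairs gave 4.76 to 12.2 across and 3.98 to 8.07 within. A test of whether the difference between OIR and normoxic retinas itself differed between replicates 1 to 3 and 4 to 6 passed for 8.21% of the 18275 genes tested, so values within each set are given as well. Of 70 genes, 36 overlapped another gene model on the genome, 12 of them one with at least 10% of their own count, and the strand setting of the counting is not given.

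Most of these genes were lower in OIR retinas. By edgeR's quasi-likelihood test at an adjusted p of 0.05, 40 of the 70 fell, 6 rose and 24 were not called, while 14.8% of all genes tested fell, 16.2% rose and 31.0% were called in either direction. The median log2 fold change, OIR minus normoxic, was -0.35 over the 70 genes and -0.01 over all genes tested. The changes were mostly small, since 20 of the called genes reached 1.5-fold and 4 reached 2-fold (Kcnq1, Kcnmb1, Kcnk6 and Kcne4), all 4 of them higher in OIR retinas. In 24 genes every OIR library lay below every normoxic library, and in 4 every OIR library lay above, where 6.60% and 9.47% of all genes tested did so. Of the 47 with a mean count of at least 100, 35 fell and 2 rose, where 18% of the 12439 genes at that depth fell and 17.1% rose. Of the 23 with fewer counts, 5 fell and 4 rose, and at this depth smaller changes were less detectable. In bulk tissue fewer cells of a type and less RNA per cell cannot be told apart.

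**Figure D1:**
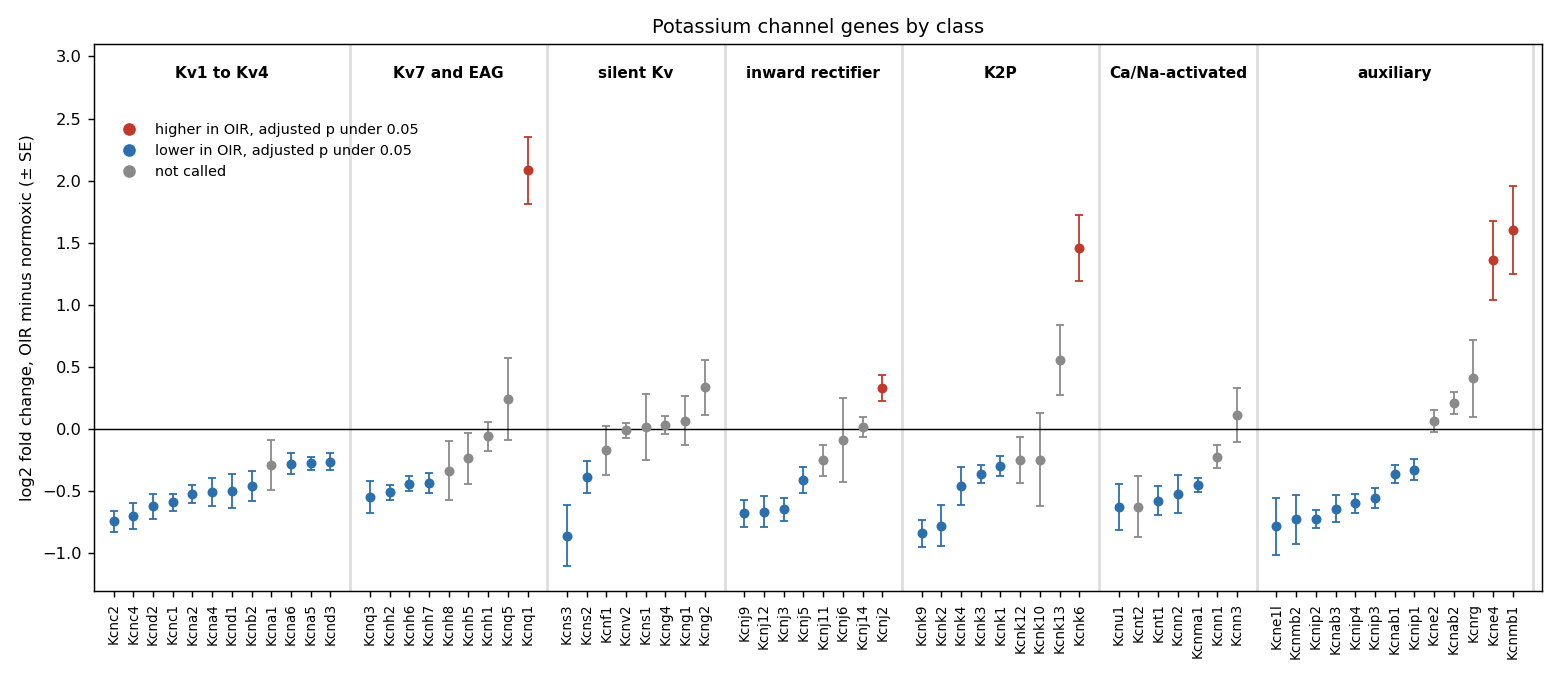
Log2 fold change (OIR minus normoxic) with its SE for 66 of the genes, in 7 classes and ordered within each class, with red for genes called higher, blue for genes called lower and grey for genes not called. Of the 66 points 50 lie below 0, and Kcnq1, Kcnmb1, Kcnk6 and Kcne4 stand above 1.

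Markers of other cells moved in the same comparison. Of the markers of OFF bipolar cells 5 of 5 fell, with a summed level of 282 to 337 CPM in OIR retinas and 398 to 487 CPM in normoxic retinas. For ON bipolar cells 4 of 5 fell (675 to 784 CPM in OIR retinas, 946 to 1083 CPM in normoxic ones), and for amacrine cells 6 of 6 fell (419 to 541 CPM in OIR retinas, 619 to 778 CPM in normoxic ones). Of the rod markers edgeR called 0 of 5 (3 at an unadjusted p of 0.05, 2 by DESeq2 and 0 by limma), of cones 1 of 5 fell, of ganglion cells 2 of 5 and of horizontal cells 1 of the 3 tested, with Onecut1 at 0 in a library. All 6 pericyte and smooth muscle markers rose (436 to 652 CPM in OIR retinas, 165 to 220 CPM in normoxic ones). So did 5 of 5 endothelial, 4 of 4 astrocyte and 5 of 6 microglial and macrophage markers, with Mrc1 at 0 in a library. Of the microglial and macrophage markers, P2ry12 was not called (log2 fold change 0.38, edgeR adjusted p = 0.0999). Of the Müller glia markers 1 of 6 rose and 3 fell, of the lens markers 3 of 6 fell with Crygs at 0 in a library, and of the pigment epithelium markers edgeR called 0 of 5 (0 at an unadjusted p of 0.05, 0 by DESeq2 and 0 by limma). The cone and pigment epithelium markers moved in opposite directions in the sets of replicates. Within replicates 1 to 3, 4 of 5 cone markers fell (1019 to 1212 CPM summed in OIR retinas, 1622 to 1683 CPM in normoxic ones), and within replicates 4 to 6, 3 of 5 rose (1195 to 1429 CPM in OIR retinas, 989 to 1084 CPM in normoxic ones). Of the pigment epithelium markers 4 of 5 rose within replicates 1 to 3 (44.2 to 57.5 CPM in OIR retinas, 13.2 to 16.0 CPM in normoxic ones), and 2 of 5 fell within replicates 4 to 6 (66.9 to 93.6 CPM in OIR retinas, 104 to 119 CPM in normoxic ones). Of the 5 rod markers 3 rose within replicates 1 to 3, and within replicates 4 to 6, 2 rose and 1 fell. Of the 5 ganglion cell markers 1 rose and 2 fell within replicates 1 to 3, and 4 fell within replicates 4 to 6. The difference between sets passed in 5 of 5 cone, 4 of 5 pigment epithelium, 4 of 6 Müller glia and 4 of 6 amacrine markers. It also passed in 3 of 5 OFF bipolar, 3 of 5 ganglion and 2 of 4 astrocyte markers, and in 1 marker each of ON bipolar cells, horizontal cells and rods. All 6 pericyte and smooth muscle and all 5 endothelial markers rose in each set. What part these cells have in the channel values was not tested.

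The Kv1 to Kv4 pores, which open on depolarisation and repolarise neurons, fell in 12 of 14 genes, and the other 2 were not called, with a median log2 fold change of -0.48. In 8 of the 14 the groups did not overlap. Within replicates 1 to 3 the same test called 12 of the 14 lower and within replicates 4 to 6 it called 8, where 18.6% and 8.36% of all genes were called lower. Kcnc1 (ENSMUSG00000058975, GRCm39 chromosome 7, 46045921 to 46088128) encodes a Kv3 pore known for fast repolarisation in starburst amacrine and other fast-firing cells. It lay between 62.4 and 72.6 CPM with a median of 66.8 CPM in OIR retinas, against 86.7 to 114 CPM with a median of 100.4 CPM in normoxic retinas. Every OIR library lay below every normoxic one, and the log2 fold change was -0.59 ± 0.07 (SE, edgeR adjusted p = 2.1e-06). Kcnc2, its close Kv3 relative, ranged from 23.9 to 29.8 CPM (median 26.7 CPM) in OIR retinas and from 36.6 to 54.2 CPM (median 43.5 CPM) in normoxic retinas, again without overlap, a log2 fold change of -0.74 ± 0.08 (edgeR adjusted p = 2.1e-06). The A-type Kv3 gene Kcnc4 changed by -0.70 ± 0.10 on the log2 scale (edgeR adjusted p = 4.4e-05), with 17.4 to 27.1 CPM in OIR retinas and 30.0 to 40.6 CPM in normoxic retinas.

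Kcna2, a low-threshold Kv1 pore of axons, had 37.3 to 49.0 CPM in OIR retinas (median 45.7 CPM) and 58.3 to 73.4 CPM in normoxic retinas (median 63.4 CPM), with a log2 fold change of -0.52 ± 0.07 (edgeR adjusted p = 1.8e-05). Kcnd2, a somatodendritic A-type Kv4 pore, had 9.17 to 12.1 CPM in OIR retinas (median 10.03 CPM) and 12.8 to 19.0 CPM in normoxic retinas (median 16.4 CPM), with a log2 fold change of -0.62 ± 0.10 (edgeR adjusted p = 1.2e-04). Neither gene's groups overlapped. The other Kv1 to Kv4 genes that fell were Kcna4, Kcna5, Kcna6, Kcnb2, Kcnd1 and Kcnd3, with log2 fold changes of -0.51, -0.28, -0.28, -0.46, -0.50 and -0.26. Kcna4, Kcna6, Kcnb2 and Kcnd1 were not called within replicates 4 to 6, and Kcna6 also missed the threshold without normoxic replicate 1 or 3 (edgeR adjusted p = 0.0505 and 0.0504). Kcna1 was not called (1.28 to 1.95 CPM in OIR retinas, 1.58 to 2.56 CPM in normoxic ones).

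**Figure D2:**
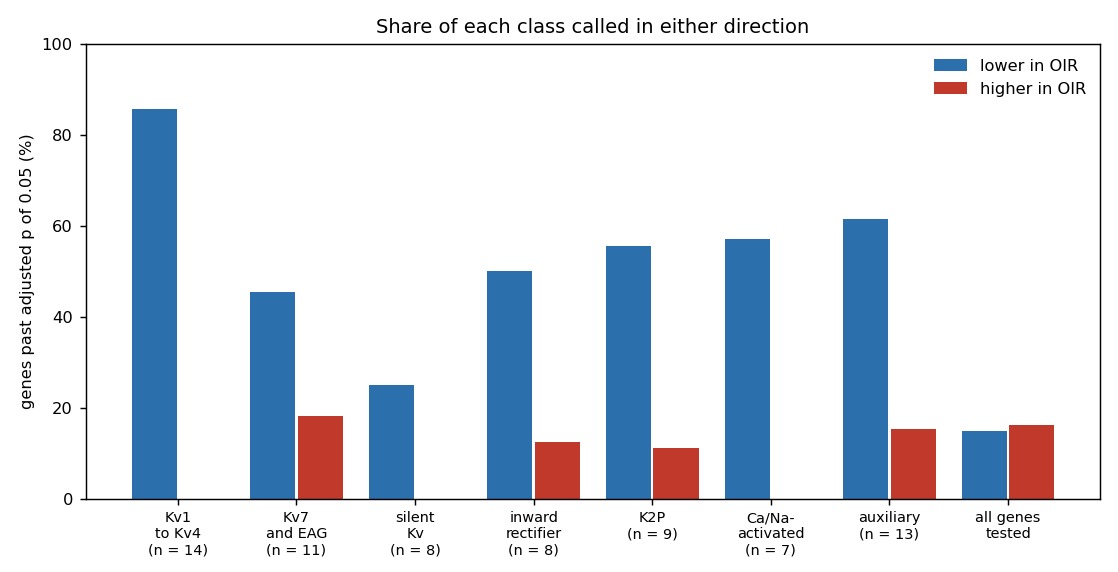
Share of each class called lower (blue) or higher (red) in OIR retinas at an edgeR adjusted p of 0.05, with the number of genes in the class (n) and the share of all genes tested at the right. The lower share is highest for Kv1 to Kv4 pores (85.7%) and is 14.8% for all genes tested. It is lowest for silent subunits (25%), where it rests on 2 of 8 genes, neither called lower within either set of replicates.

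Among the 11 Kv7 and EAG pores, which open slowly or at subthreshold potentials, 5 fell and 2 rose (median log2 fold change -0.33). Kcnh2, an EAG-related pore known for the cardiac repolarising current, had 71.5 to 87.4 CPM in OIR retinas (median 84.5 CPM) and 107 to 134 CPM in normoxic retinas (median 116 CPM). No library overlapped, and the log2 fold change was -0.51 ± 0.06 (edgeR adjusted p = 4.1e-06). Its relatives Kcnh6 and Kcnh7 also fell without overlap, by 0.44 and 0.43 on the log2 scale (edgeR adjusted p = 2.9e-05 and 3.1e-04). Kcnh7 overlaps Gca on the opposite strand, with a mean count of 476 against 340 for Kcnh7, and Gca was not called (log2 fold change -0.07, edgeR adjusted p = 0.442), so the counts of Kcnh7 are uncertain. Kcnq3, a subunit of the M-current channel of neurons, fell by 0.55 on the log2 scale with overlapping groups (edgeR adjusted p = 0.00331). Kcnq1, the Kv7 pore of heart and epithelia, went the other way. It had 2.19 to 3.95 CPM in OIR retinas (median 3.48 CPM) and 0.379 to 1.39 CPM in normoxic retinas (median 0.715 CPM), with summed counts of 367 and 86. The groups did not overlap, and the level was 4.24-fold higher in OIR retinas (log2 fold change 2.08 ± 0.27, edgeR adjusted p = 9.8e-06). Kcnq1 contains the shorter antisense gene Kcnq1ot1 on the opposite strand, with a mean count of 483 against 37.8 for Kcnq1, and with the strand setting unknown their reads cannot be told apart. Kcnq1ot1 itself had a log2 fold change of -0.16 (edgeR adjusted p = 0.179). The other 4 genes of this class, Kcnh1, Kcnh5, Kcnh8 and Kcnq5, were not called.

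The silent Kv subunits form no channel alone and modify Kv2 pores. Of the 8, 2 fell and 6 were not called, and the median log2 fold change was 0.00. Kcnv2, a silent subunit known from photoreceptors, had 481 to 567 CPM in OIR retinas (median 529 CPM) and 473 to 585 CPM in normoxic retinas (median 543 CPM), with a log2 fold change of -0.01 ± 0.06 (edgeR adjusted p = 0.937). Kcns3 fell, with 0.523 to 0.874 CPM in OIR retinas and 1.02 to 1.78 CPM in normoxic retinas (log2 fold change -0.86 ± 0.25, edgeR adjusted p = 0.0119), and so did Kcns2 by 0.39 (edgeR adjusted p = 0.0275). Neither was called within replicates 1 to 3 or within 4 to 6, and Kcns2 had an edgeR adjusted p between 0.0551 and 0.0654 without OIR replicate 1, 2 or 4 or normoxic replicate 5 or 6. The span of Kcns3 overlaps Gm48088 on the opposite strand, with a mean count of 2.8 against 18.9 for Kcns3. Kcnf1, Kcng1, Kcng2, Kcng4 and Kcns1 had log2 fold changes between -0.17 and 0.34 and were not called. Kcng4 was called higher within replicates 1 to 3 (0.18, edgeR adjusted p = 0.0385) and had -0.12 within replicates 4 to 6, and Kcnv2 was called higher within replicates 1 to 3 (0.13, edgeR adjusted p = 0.0371) and had -0.13 within replicates 4 to 6.

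Of the 8 inward rectifiers, 4 fell and 1 rose (median log2 fold change -0.33). The falling genes included 3 of the 4 subunits of the G protein-gated channels that metabotropic receptors open. Kcnj3 had 11.4 to 13.9 CPM in OIR retinas (median 12.1 CPM) and 16.9 to 22.4 CPM in normoxic retinas (median 19.1 CPM), without overlap (log2 fold change -0.65 ± 0.09, edgeR adjusted p = 3e-05). Kcnj9, the G protein-gated subunit with the highest FPKM here, had 49.8 to 58.4 CPM in OIR retinas (median 54.2 CPM) and 64.3 to 109 CPM in normoxic retinas (median 88.7 CPM), a log2 fold change of -0.68 ± 0.11 (edgeR adjusted p = 1.2e-04). Kcnj5 fell by 0.41 with overlapping groups (edgeR adjusted p = 0.00686), and Kcnj6, the fourth subunit and a scarce one, was not called (log2 fold change -0.09 ± 0.34, edgeR adjusted p = 0.876). Kcnj12, a classical strong rectifier, fell by 0.67 (edgeR adjusted p = 4.6e-04), while its relative Kcnj2 rose by 0.33 (edgeR adjusted p = 0.0214), with 8.88 to 12.3 CPM in OIR retinas and 6.86 to 9.21 CPM in normoxic ones. Kcnj14, a strong rectifier that was the most abundant of all 70 genes, had 346 to 414 CPM in OIR retinas (median 374 CPM) and 311 to 430 CPM in normoxic retinas (median 380 CPM), a log2 fold change of 0.02 ± 0.08 (edgeR adjusted p = 0.897). Within replicates 1 to 3 Kcnj14 was called lower (-0.13, edgeR adjusted p = 0.0306), and within replicates 4 to 6 it had 0.18. Kcnj2 was called within neither set of replicates, nor without OIR replicate 5 or normoxic replicate 3 (edgeR adjusted p = 0.0568 and 0.0535), and Kcnj5 was not called within replicates 4 to 6. Kcnj11, the pore of ATP-sensitive channels, was not called.

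The K2P genes encode leak channels that set the resting potential. Of 9, 5 fell and 1 rose (median log2 fold change -0.30). Kcnk9, an acid-sensitive leak channel, had 10.4 to 14.9 CPM in OIR retinas (median 13.5 CPM) and 18.8 to 29.2 CPM in normoxic retinas (median 23.7 CPM), without overlap (log2 fold change -0.84 ± 0.11, edgeR adjusted p = 1.1e-05). Its close relative Kcnk3 fell by 0.36, and the mechanosensitive channels Kcnk2 and Kcnk4 fell by 0.78 and 0.46 (edgeR adjusted p = 9.3e-04, 0.0015 and 0.0295). Kcnk1, a weak inward-rectifying leak channel, fell by 0.30 (edgeR adjusted p = 0.00724). Kcnk2 shares its locus and strand with a pseudogene, Pdcd5-ps, with a mean count of 71.9 against 78.2 for Kcnk2, so their counts are uncertain. Kcnk3 overlaps Gm9899 on the opposite strand, with a mean count of 79.4 against 693.2 for Kcnk3. Gm9899 also fell (log2 fold change -0.56, edgeR adjusted p = 0.014). Kcnk6, a relative of Kcnk1, rose. It had 1.13 to 1.69 CPM in OIR retinas (median 1.48 CPM) and 0.327 to 0.874 CPM in normoxic retinas (median 0.478 CPM), 2.75-fold (log2 fold change 1.46 ± 0.27, edgeR adjusted p = 3.5e-04). Kcnk1, Kcnk3 and Kcnk6 were not called within replicates 4 to 6, where Kcnk6 had a log2 fold change of 1.20 (edgeR adjusted p = 0.0643). Kcnk4 was called within neither set and had an edgeR adjusted p between 0.0598 and 0.0795 without OIR replicate 1, 3 or 5 or normoxic replicate 6. Kcnk12 and Kcnk13 were not called. Kcnk10, another mechanosensitive leak channel, was not called over all libraries, and it is described here because the sets disagreed. Within replicates 1 to 3 it had 1.57, 1.72 and 2.16 CPM in OIR retinas and 0.644, 0.813 and 0.972 CPM in normoxic retinas, while within replicates 4 to 6 it had 1.22, 1.51 and 0.794 CPM in OIR retinas and 2.62, 1.95 and 3.71 CPM in normoxic retinas. The log2 fold change was 1.17 in the first set and -1.23 in the second, and the difference between sets passed (-2.40, edgeR adjusted p = 0.00334).

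Of the 7 calcium-, sodium- or alkali-activated channels, 4 fell and 3 were not called (median log2 fold change -0.53). Kcnma1, the large-conductance (BK) pore that opens with calcium and voltage, had 123 to 147 CPM in OIR retinas (median 135 CPM) and 171 to 199 CPM in normoxic retinas (median 184 CPM). The groups did not overlap, the log2 fold change was -0.45 ± 0.06 (edgeR adjusted p = 5.8e-06), and it was -0.45 within replicates 1 to 3 and -0.44 within replicates 4 to 6. Kcnt1, a sodium-activated pore, fell by 0.58 (edgeR adjusted p = 9.3e-04), and the small-conductance calcium-activated Kcnn2 fell by 0.53 (edgeR adjusted p = 0.0138). Kcnu1, an alkali-activated BK relative known from sperm, fell by 0.63 (edgeR adjusted p = 0.0142). Kcnn2 and Kcnu1 were not called within replicates 4 to 6. Kcnn1, Kcnn3 and Kcnt2 were the 3 not called.

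Of the 13 auxiliary subunits, 8 fell and 2 rose (median log2 fold change -0.36). All 4 Kv channel-interacting proteins, calcium sensors that bind Kv4 pores, were among the genes that fell. Kcnip2 (ENSMUSG00000025221, GRCm39 chromosome 19, 45780278 to 45804500) had the smallest adjusted p of the 70 genes. It had 23.6 to 30.5 CPM in OIR retinas (median 25.3 CPM) and 41.7 to 46.2 CPM in normoxic retinas (median 43.5 CPM), without overlap, a log2 fold change of -0.72 ± 0.07 (edgeR adjusted p = 3.4e-07). Kcnip4, whose span overlaps 5730480H06Rik on the opposite strand (mean count 234 against 648 for Kcnip4), had 24.5 to 32.0 CPM in OIR retinas and 36.8 to 45.1 CPM in normoxic retinas (log2 fold change -0.60 ± 0.07, edgeR adjusted p = 5.8e-06), and Kcnip3, also known as a transcriptional repressor, fell by 0.56 (edgeR adjusted p = 3.9e-05). Kcnip1 fell by 0.33 (edgeR adjusted p = 0.00599). Among the Kv1 beta subunits, Kcnab3 and Kcnab1 fell by 0.64 and 0.36 (edgeR adjusted p = 2e-04 and 0.00112), while Kcnab2, with the highest FPKM of them, had 252 to 328 CPM in OIR retinas and 209 to 296 CPM in normoxic retinas and was not called over all libraries. Within replicates 4 to 6 Kcnab2 was called higher (log2 fold change 0.40, edgeR adjusted p = 0.00107), against 0.05 within replicates 1 to 3, and the difference between sets passed (edgeR adjusted p = 0.0192). Its span overlaps Nphp4 on the opposite strand, with a mean count of 1216 against 4968 for Kcnab2. Kcnmb2, a BK beta subunit, fell by 0.73 (edgeR adjusted p = 0.00921), and Kcne1l, a single-span accessory subunit, fell by 0.78 (edgeR adjusted p = 0.0134). Kcnmb2 was not called within either set of replicates, and Kcnab1 was not called within replicates 4 to 6.

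The genes that rose in this class were scarce ones. Kcnmb1, the BK beta subunit of smooth muscle, had 0.688 to 2.86 CPM in OIR retinas (median 1.37 CPM) and 0.278 to 0.817 CPM in normoxic retinas (median 0.501 CPM), 3.03-fold (log2 fold change 1.60 ± 0.36, edgeR adjusted p = 0.00199), and the groups overlapped. It lies within Kcnip1 on the opposite strand, and Kcnip1 held a mean count of 1064 against 19.4 for Kcnmb1, so reads of the pair cannot be told apart by strand here. Kcne4, an accessory subunit that inhibits Kv7 and Kv1 pores, had 1.15 to 2.26 CPM in OIR retinas (median 1.56 CPM) and 0.325 to 1.11 CPM in normoxic retinas (median 0.524 CPM), 2.56-fold (log2 fold change 1.36 ± 0.32, edgeR adjusted p = 0.00293). Markers of pericytes and smooth muscle (6 of 6), endothelium (5 of 5), astrocytes (4 of 4) and microglia and macrophages (5 of 6) rose as well. What part these cells have in the values of Kcnmb1, Kcne4 and Kcnq1 was not tested. Kcne2, an accessory subunit known from stomach and choroid plexus, had 89.8 to 109 CPM in OIR retinas and 77.2 to 115 CPM in normoxic retinas and was not called over all libraries. Its log2 fold change was -0.13 within replicates 1 to 3 and 0.28 within replicates 4 to 6, where it was called higher (edgeR adjusted p = 0.00751), and the difference between sets passed (edgeR adjusted p = 0.0101). Kcnrg, which limits Kv1 assembly, was not called. Its span overlaps Dleu2 on the opposite strand, with a mean count of 260.3 against 12.4 for Kcnrg.

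**Figure D3:**
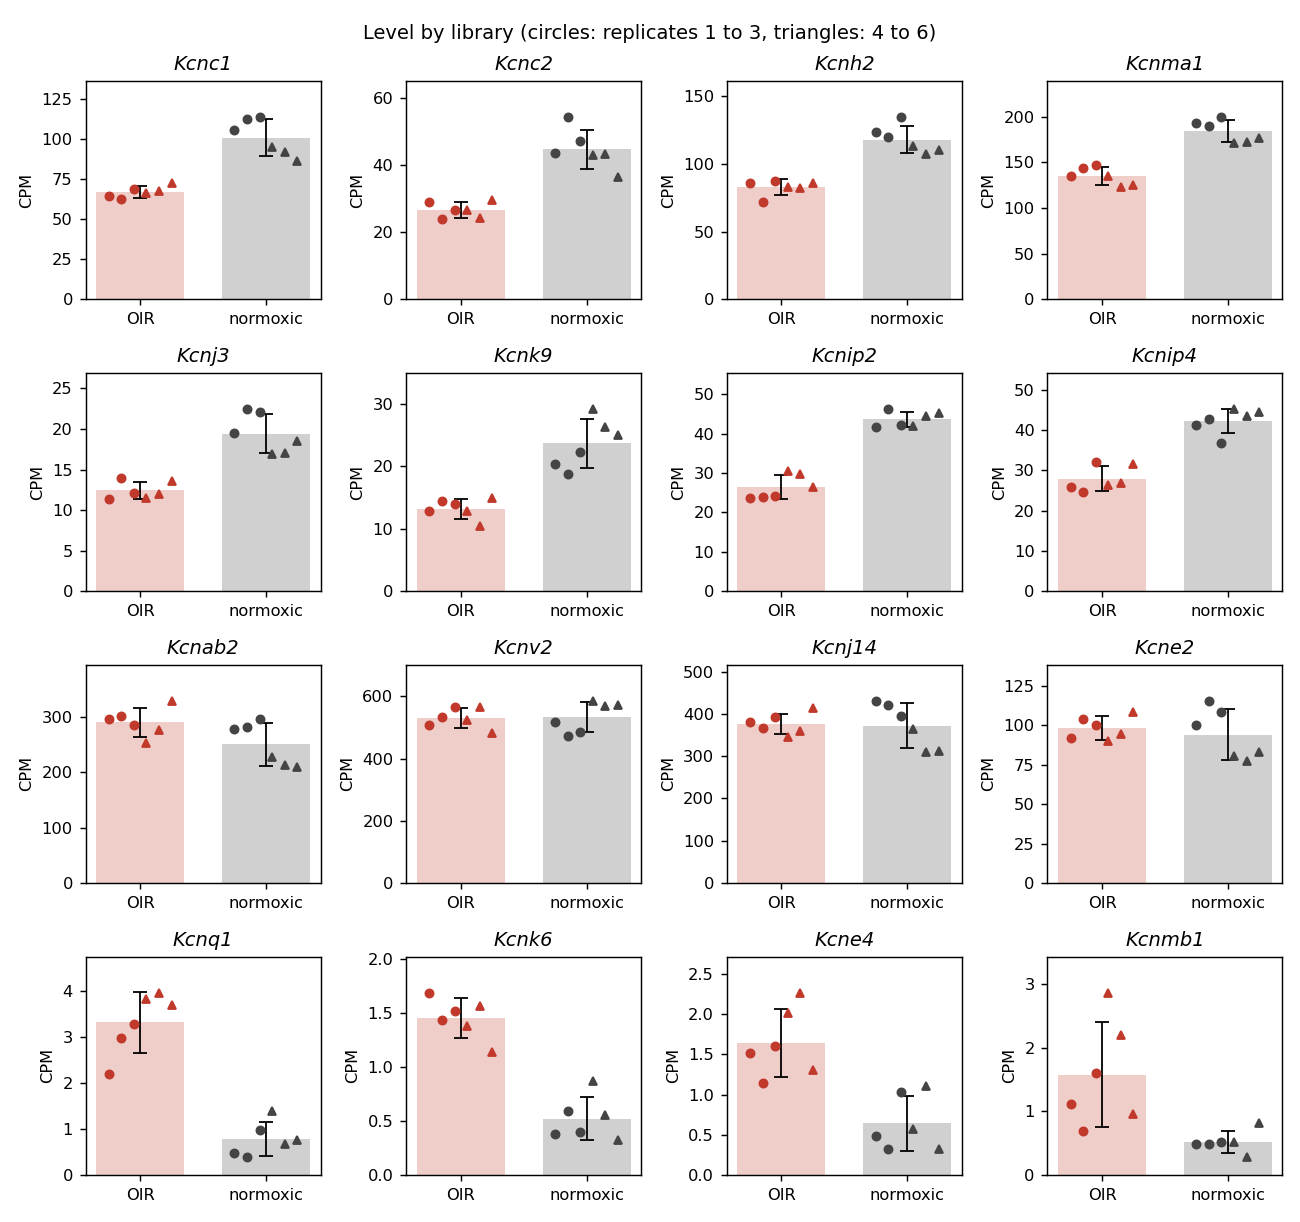
Level in CPM of 16 genes in each library, with bars for the group mean and error bars for the SD (n = 6 libraries a group), circles for replicates 1 to 3 and triangles for replicates 4 to 6. In the upper 8 panels every OIR library lies below every normoxic one, in the third row the groups overlap, and in the lowest row every OIR library lies above for Kcnq1, Kcnk6 and Kcne4 while the groups overlap for Kcnmb1.

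Promoter sequences were read for the called genes with the smallest adjusted p in each direction that had exactly 1 entry, to show what lies before their start beside the expression values. The sequences run from 250 bases before to 50 after the RefSeq start on GRCm38.p6, a different build from that of the counts. Capitals mark a hypoxia response motif, ACGTG or GCGTG on either strand, or the palindrome made of 2 overlapping matches. Kcnip2 (chr19:45816014-45816313, minus strand) and Kcnc1 (chr7:46396218-46396517, plus strand) fell, and Kcne4 (chr1:78816661-78816960, plus strand) and Kcnmb1 (chr11:33962763-33963062, plus strand) rose.
Kcnip2: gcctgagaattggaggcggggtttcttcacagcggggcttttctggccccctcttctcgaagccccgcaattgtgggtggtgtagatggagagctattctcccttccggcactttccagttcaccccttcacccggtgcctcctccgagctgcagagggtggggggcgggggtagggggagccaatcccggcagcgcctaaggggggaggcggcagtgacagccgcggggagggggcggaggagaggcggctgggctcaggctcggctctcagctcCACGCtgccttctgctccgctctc
Kcnc1: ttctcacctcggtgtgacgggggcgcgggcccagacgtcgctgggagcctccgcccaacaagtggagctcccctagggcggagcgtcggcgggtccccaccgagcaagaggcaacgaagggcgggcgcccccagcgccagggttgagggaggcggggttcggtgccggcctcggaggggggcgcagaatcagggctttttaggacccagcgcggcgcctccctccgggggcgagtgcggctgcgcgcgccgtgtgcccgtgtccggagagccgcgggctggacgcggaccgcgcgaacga
Kcne4: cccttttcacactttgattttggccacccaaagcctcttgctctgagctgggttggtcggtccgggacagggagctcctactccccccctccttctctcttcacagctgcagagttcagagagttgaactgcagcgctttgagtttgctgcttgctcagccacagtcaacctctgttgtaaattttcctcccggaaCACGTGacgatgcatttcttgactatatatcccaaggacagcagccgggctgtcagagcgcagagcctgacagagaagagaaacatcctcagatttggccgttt
Kcnmb1: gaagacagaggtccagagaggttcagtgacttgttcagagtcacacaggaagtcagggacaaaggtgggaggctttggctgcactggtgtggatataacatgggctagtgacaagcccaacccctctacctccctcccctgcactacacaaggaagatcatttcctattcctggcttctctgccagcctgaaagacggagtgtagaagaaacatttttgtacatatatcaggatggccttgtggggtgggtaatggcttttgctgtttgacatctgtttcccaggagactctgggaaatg
The motif was in 46.7% of the promoters of 27025 genes and in 50% of the 48 potassium channel genes with an entry. It was present in 14 of 28 genes that fell, 2 of 3 that rose and 8 of 17 that were not called. A match is a run of letters and was not tested for binding.

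Several of the genes with the highest levels per length were not called. By mean FPKM (the authors' depth-scaled fragments per kilobase), Kcnj14, Kcnv2, Kcne2 and Kcnab2 stood at 138, 104, 54.3 and 38.6 FPKM, and none of these 4 was called over all libraries. Kcnj14 averaged 138 ± 7.92 FPKM in OIR retinas and 137 ± 19.1 FPKM in normoxic retinas (SD, n = 6 each), and Kcnv2 averaged 103 ± 7.28 FPKM in OIR retinas and 105 ± 9.49 FPKM in normoxic ones. Kcna5, a Kv1 delayed rectifier, and Kcnh2, which fell, stood at 24.6 and 20.7 FPKM. The genes that rose most were scarce, since Kcnq1, Kcnmb1, Kcnk6 and Kcne4 averaged 0.498, 0.249, 0.237 and 0.428 FPKM.

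**Figure D4:**
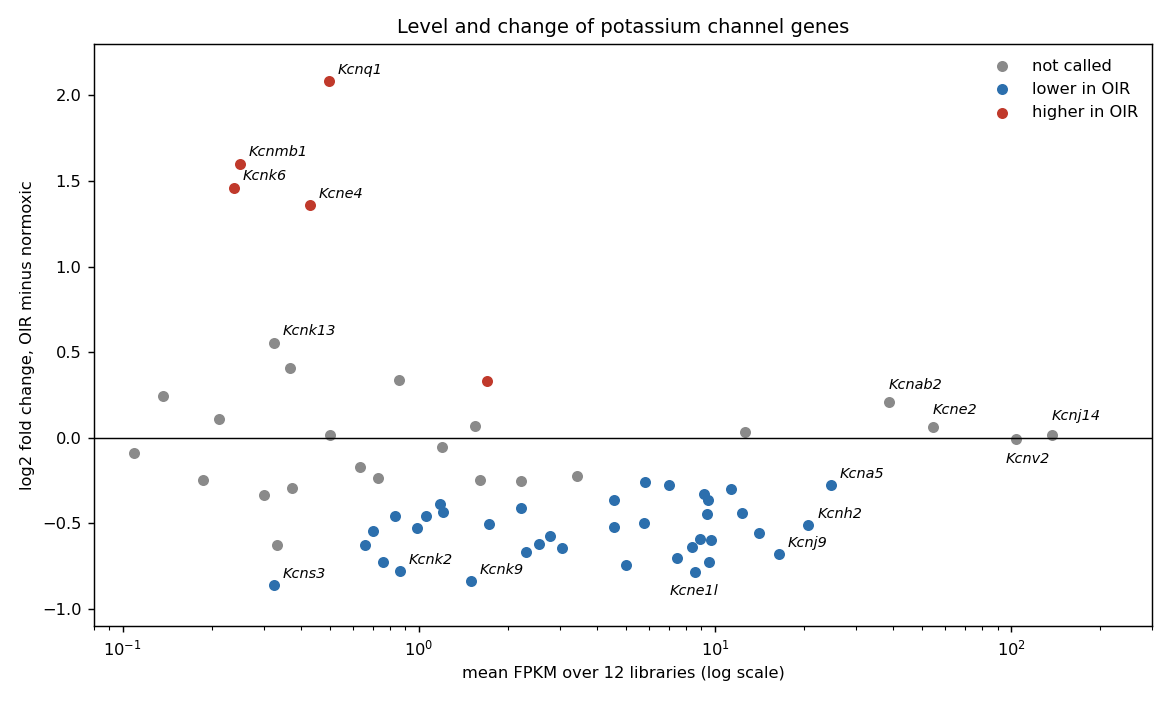
Mean FPKM over the 12 libraries (log axis) against the log2 fold change (OIR minus normoxic) for 66 of the genes, with red for genes called higher, blue for genes called lower and grey for genes not called. The 4 points with the highest level, from 38.6 to 138 FPKM, are grey and lie near 0, and the 4 genes changed over 2-fold lie below 1 FPKM.

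The sets of replicates gave the same direction for every called gene. Of the 40 genes that fell over all libraries, 36 fell within replicates 1 to 3 and 26 within replicates 4 to 6. Of the 6 that rose, 5 and 3 did so. Each set is part of the 12 libraries behind these calls, so this agreement is partly built in. Of all 70 genes, 37 fell and 8 rose within replicates 1 to 3, where 18.6% and 20.3% of all genes tested did. Within replicates 4 to 6, 27 fell and 5 rose, where 8.36% and 11.6% did. The median log2 fold change over the 70 genes was -0.38 within replicates 1 to 3 and -0.33 within replicates 4 to 6. The difference between sets passed in 10 of the 70 genes, in Kcnk10, Kcnj9, Kcnj14, Kcnc1, Kcnd1, Kcnip3, Kcnab2, Kcne2, Kcng4 and Kcnv2. In Kcnc1 the log2 fold change was -0.76 within replicates 1 to 3 and -0.41 within replicates 4 to 6, and in Kcnj9 it was -0.91 and -0.38, so both genes fell in each set.

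**Figure D5:**
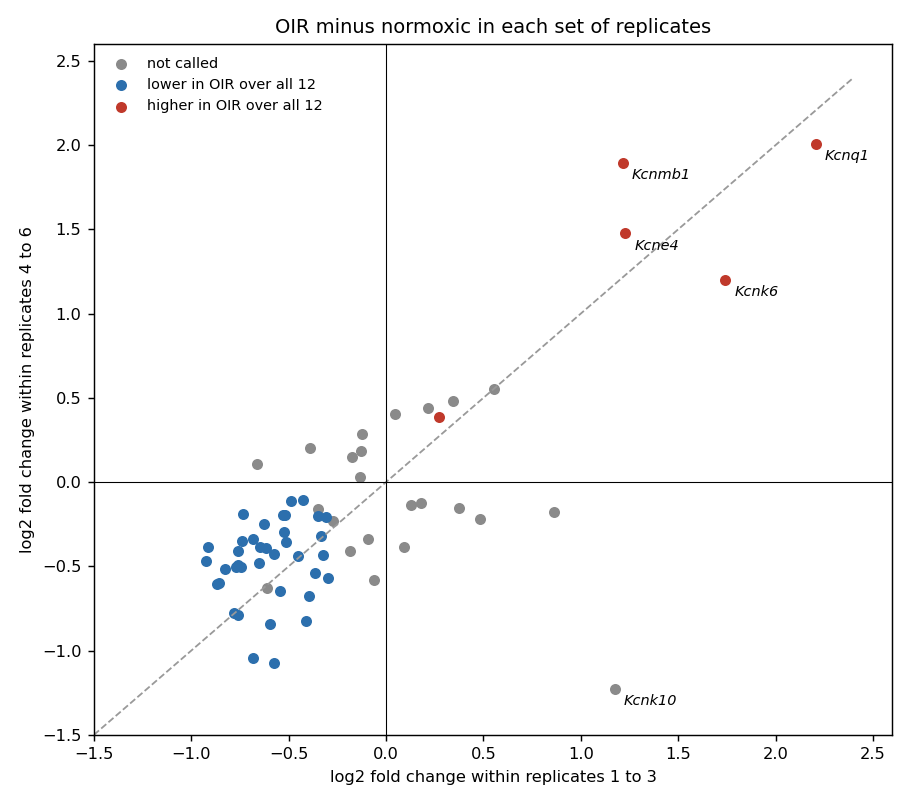
Log2 fold change (OIR minus normoxic) of 66 of the genes within replicates 1 to 3 (x axis) and within replicates 4 to 6 (y axis), with the dashed line of equal values and colours for the call over all 12 libraries. Blue and red points lie in the same quadrant in both sets, and Kcnk10, not called, lies at 1.17 and -1.23.

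Genes whose products work with potassium channels moved both ways. Of 30 such partner genes, of which Abcc9 is also a pericyte marker, 28 were tested. Of these, 6 rose and 10 fell (median log2 fold change -0.12), where 16.2% of all genes tested rose and 14.8% fell. Dag1, which anchors the channel complex of glial endfeet, had 86.0 to 94.8 CPM in OIR retinas (median 89.6 CPM) and 55.9 to 69.7 CPM in normoxic retinas (median 62.6 CPM), with a log2 fold change of 0.53 (edgeR adjusted p = 7.3e-07). The groups did not overlap. Of the accessory subunits of BK channels, Lrrc52 had 0 counts in both groups, and Lrrc26 had 33 counts in all OIR libraries and 49 in all normoxic ones. Of 22 pore genes for sodium, calcium and pacemaker channels, 16 fell and 1 rose (median log2 fold change -0.42), and whether they differ from the potassium channel genes was not tested.

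The count minimum set which genes were included. Just inside it were Kcnrg and Kcnj6, with mean counts of 12.4 and 15.3, and just outside it were Kcnmb4 and Kcnj4, with 8.5 and 7.3. Among the 21 below it, which were not tested, Kcnk5 had 36 counts in all OIR libraries and 7 in all normoxic ones, Kcne1 had 42 and 15, and Kcnj15 had 44 and 15. These were picked after their counts were seen. Kcnk16 and Kcnk18 had 0 counts in both groups. The minimum was applied to the mean over both groups, so a scarce gene could pass on the counts of its higher group. Of the genes changed over 2-fold, Kcnmb1 had 176 counts in all OIR libraries and 57 in all normoxic ones. Kcnk6 had 161 and 58, Kcne4 had 182 and 70, and Kcnq1 had 367 and 86. The fold changes of these genes rest on few normoxic counts.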

How the data were processed

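Retinal RNA from 6 OIR and 6 normoxic libraries was captured by poly-A, per the labels' protocols. The submitters' processing notes name HTSeq, HISAT2 version 2.0.5, Trimmomatic and build GRCm39 without roles. Neither annotation release nor strand setting is stated in those notes or in the labels. The deposited table has whole-number gene counts and, per the file headers, also FPKM computed by the authors. The quasi-likelihood test of edgeR version 4.0.16, under R version 4.3.3, was run on all genes kept by filterByExpr (minimum count 10, total 15) with TMM scaling and Benjamini-Hochberg adjustment over 18275 genes. Every adjusted p is edgeR's unless another tool is named, and each log2 difference subtracts the normoxic group. Biological variation had a median coefficient of 11.2%. The fit was tested on simulated data. Total counts of 17361979 to 21594618 per library set the precision.

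Groups came from the sample titles. In chi-square tests all library pairs differed by more than counting noise, so each library was counted once. Nothing says that the libraries came from separate animals. The p-values therefore reflect only how much these libraries vary, which may be technical.

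The members, lists and alternatives were chosen with earlier results of these data known. Named genes were, in each of 7 classes, up to 4 called genes with the smallest adjusted p, the one with the highest mean FPKM and those changed at least 1.5-fold and called, with further called genes by log2 fold change. Kcnj2, Kcnk10 and uncalled genes outside this rule were picked after their values were seen. Values within replicates 1 to 3 and 4 to 6 were among the alternatives, and the test of the difference between these sets was added after seeing the data. In all 24 alternatives were run, with DESeq2 version 1.42.0 and limma version 3.58.1 on log2(FPKM + 1) and log2(FPKM + 0.1) among them. Of 21 rows of the table whose start lies after their end, the ends were swapped to find overlapping genes. Promoters came from RefSeq tables of GRCm38.p6, matched by symbol. Some genes are counted in their class but are not reported here by name.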

Additional observations from a re-analysis of the deposited data

Results flagged for a closer look

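In 3 of 72 groups of 6 libraries (the 36 named genes in both groups) 1 library lay far from the others, with a gap to its nearest neighbour that was large against the group's range (Dixon's test). Chance flags about 1 in 20 groups. Kcnh2 had 71.5 CPM in OIR replicate 2, below the other OIR libraries (gap 0.643 of the range). Kcnk2 had 7.11 CPM in normoxic replicate 5, above the other normoxic libraries (gap 0.765), and Kcnmb2 had 4.06 CPM in the same library (gap 0.646). Kcnh2, Kcnk2 and Kcnmb2 were called without each of these libraries as well.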

How the results depend on the processing

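Under 24 alternatives, 36 of the 40 genes that fell and 5 of the 6 that rose were called in the same direction under all those fitted to libraries of both sets, and 25 and 3 under all 24. No called gene changed sign. The fit with a replicate block kept all 40 lower and 6 higher calls and gained 1. The numbers were not taken to pair samples, since same-numbered libraries correlated between -0.02 and 0.12 in their deviations from the group means, with 1 of 6 pairs over 0.1, and 1 of 6 OIR libraries correlated best with its own number. DESeq2 and limma on log2 FPKM also kept all calls. Lost were Kcnk4, Kcnj2, Kcna6 and Kcns2 when single libraries were left out and Kcne1l with robust dispersion (adjusted p = 0.0512). A block for the sets of replicates kept all 40 lower and 6 higher calls and gained 2, Kcnab2 and Kcnt2. Of all genes, 1536 fell within replicates 4 to 6 and 3456 within replicates 1 to 3, with 6 libraries in each fit, against 2704 over all libraries. Within replicates 4 to 6 the class medians of the log2 fold change were -0.20 for K2P genes, -0.32 for Kv1 to Kv4 pores and -0.18 for silent subunits, against 0.00 for these over all libraries. Within replicates 1 to 3 they were -0.46 for inward rectifiers and -0.52 for auxiliary subunits, and Kcnj14 had -0.13 (adjusted p = 0.0306) and Kcnv2 0.13 (adjusted p = 0.0371), both opposite in sign to the value over all libraries. With single libraries left out, the median ran from -0.39 to -0.20 for Kv7 and EAG pores and from -0.57 to -0.42 for activated channels. On log2(FPKM + 1), where low genes change less by construction, it was -0.30 for Kv1 to Kv4 pores, -0.11 for Kv7 and EAG pores and -0.25 for activated channels, and on log2(FPKM + 0.1) it was -0.26 for Kv7 and EAG pores. Otherwise the cause was not tested. Counts under 100 limit what can be called.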
